A study of Mus musculus with 16 samples.

Results

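The core circadian clock genes examined here are Arntl, Clock, Npas2, Per1, Per2, Per3, Cry1, Nr1d1, Nr1d2 and Dbp. They were taken by symbol from the array's platform annotation, using probe sets that name 1 gene, and all 10 of 10 were measured among 18194 genes. The livers came from 16 males, 11 weeks old, of the KK-Ay strain, a model of obesity with diabetes in which the agouti gene is overactive. In 8 mice the diet held 0.1% of a maple syrup extract (MSE), and the other 8 mice ate the same normal diet without it. Singly housed mice were pair-fed for 43 days under a daily light and dark cycle, and all went 16 h without food before the liver was taken. Each array held the RNA of 1 mouse. No source used here gives the hour of killing. In whole liver, fewer cells of a type and less RNA per cell cannot be told apart. The comparisons ask whether the extract altered liver clock gene expression, and how the clock genes moved with and against each other from mouse to mouse.

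The clock is a feedback loop of transcription. Arntl (BMAL1) pairs with CLOCK or its relative NPAS2 and drives genes that carry E-boxes, among them the Per, Cry, Nr1d and Dbp genes. PER and CRY proteins then block that pair, the nuclear receptors NR1D1 and NR1D2 (REV-ERB alpha and beta) repress Arntl, Clock and Npas2 through RRE sites, and DBP acts on D-boxes. In rodent liver, Arntl, Clock and Npas2 messages therefore peak at a time of day opposite to those of Dbp and the Nr1d and Per genes, while Cry1 peaks later than the Per genes. Feeding time is a strong cue for the liver clock.

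Promoter windows from RefSeq (build GRCm38.p6), running from 250 bases before to 50 after a start site, were found for 9 of the 10 genes, with Per2 the gene without an entry. They were searched on both strands for the E-box CACGTG, the D-box TTANGTAA and the RRE (the REV-ERB and ROR response element), which do not overlap in these windows. Of 13 windows, 4 held a motif, and these are shown because each belongs to a gene whose level is followed below. The capitals mark the motif, which is an RRE in Arntl (chr7:113207261-113207560, plus strand), D-boxes in Per3 (chr4:151044616-151044915, minus strand), an E-box in Per1 (chr11:69098699-69098998, plus strand) and an E-box in Cry1 (chr10:85185005-85185304, minus strand).
Arntl: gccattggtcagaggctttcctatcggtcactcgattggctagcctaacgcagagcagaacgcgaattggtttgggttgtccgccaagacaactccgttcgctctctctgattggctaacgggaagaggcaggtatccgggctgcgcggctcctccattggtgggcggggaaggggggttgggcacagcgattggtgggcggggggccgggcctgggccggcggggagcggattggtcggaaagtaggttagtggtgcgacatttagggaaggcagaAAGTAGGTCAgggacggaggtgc
Per3: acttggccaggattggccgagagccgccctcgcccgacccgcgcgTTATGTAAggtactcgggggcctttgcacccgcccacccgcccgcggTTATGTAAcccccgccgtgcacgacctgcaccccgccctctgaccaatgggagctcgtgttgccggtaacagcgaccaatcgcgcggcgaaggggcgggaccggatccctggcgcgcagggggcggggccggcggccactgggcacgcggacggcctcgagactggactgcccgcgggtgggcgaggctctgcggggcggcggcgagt
Per1: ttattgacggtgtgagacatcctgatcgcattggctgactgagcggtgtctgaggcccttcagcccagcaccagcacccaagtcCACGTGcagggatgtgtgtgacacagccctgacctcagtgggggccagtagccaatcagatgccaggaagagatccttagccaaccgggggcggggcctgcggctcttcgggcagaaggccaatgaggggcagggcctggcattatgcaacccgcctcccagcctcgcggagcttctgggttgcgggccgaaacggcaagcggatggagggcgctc
Cry1: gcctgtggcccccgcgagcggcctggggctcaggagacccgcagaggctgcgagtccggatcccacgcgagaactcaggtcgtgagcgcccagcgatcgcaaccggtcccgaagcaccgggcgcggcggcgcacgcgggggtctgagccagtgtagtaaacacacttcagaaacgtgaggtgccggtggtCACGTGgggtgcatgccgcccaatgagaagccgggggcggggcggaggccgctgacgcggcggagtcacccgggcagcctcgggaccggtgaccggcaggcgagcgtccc
Counting the first transcribed base as 1, the Arntl RRE began at 28. The Per3 D-boxes began 205 and 158 bases before the start site, the Per1 E-box 166 bases before it and the Cry1 E-box 60 bases before it. Among 32851 promoter windows of the same length, 7.15% held the E-box, 2.32% the D-box and 0.606% the RRE. A match is a match of letters only. The windows of Clock, Npas2, Nr1d1, Nr1d2 and Dbp held none of these letters, and neither did a second window each of Arntl and Per1.

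The deposited values are on a log2-like scale with far less spread than ordinary array summaries. Over the 16 mice, probe sets had a median SD of 4.98 millionths of a log2 unit, and array medians lay between 6.038702 and 6.038841. Differences are therefore given in millionths of a log2 unit, as deviations from a gene's mean over all 16 mice, and are not fold changes of a transcript. They are also given as standardized differences, which divide the difference between diets by the pooled SD within diets. Among all genes ordered by SD, Dbp stood at place 51, Per1 at 332, Per2 at 391, Cry1 at 619 and Arntl at 995, while Npas2 stood at 10322. Those places depend on the probe set, since the 6 probe sets of Per3 had SDs between 1.34 and 507 millionths. The gap between the lowest and highest array median was wider than the SD of Arntl (89.9 millionths). It was also wider than the SDs of Nr1d1, Per3, Nr1d2, Clock and Npas2. In liver RNA the 7 measured hepatocyte markers had means between 11.0 and 14.3.

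No clock gene differed between diets by more than the spread between mice allows the test to call. Limma, adjusted over all 18194 genes, called 0 of the 10 genes at an adjusted p under 0.05, where it called 0.0% of all genes. At an unadjusted p under 0.05 it counted 0 of the 10, against 6.66% of all genes, and exact two-sided permutation tests of single genes gave p between 0.0698 (Per3) and 0.869 (Clock). With MSE 5 clock genes were higher (Arntl, Clock, Npas2, Per3, Nr1d1) and 5 lower (Per1, Per2, Cry1, Nr1d2, Dbp). The median standardized difference of the 10 was -0.08, beside -0.02 for all genes.

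**Figure D1:**
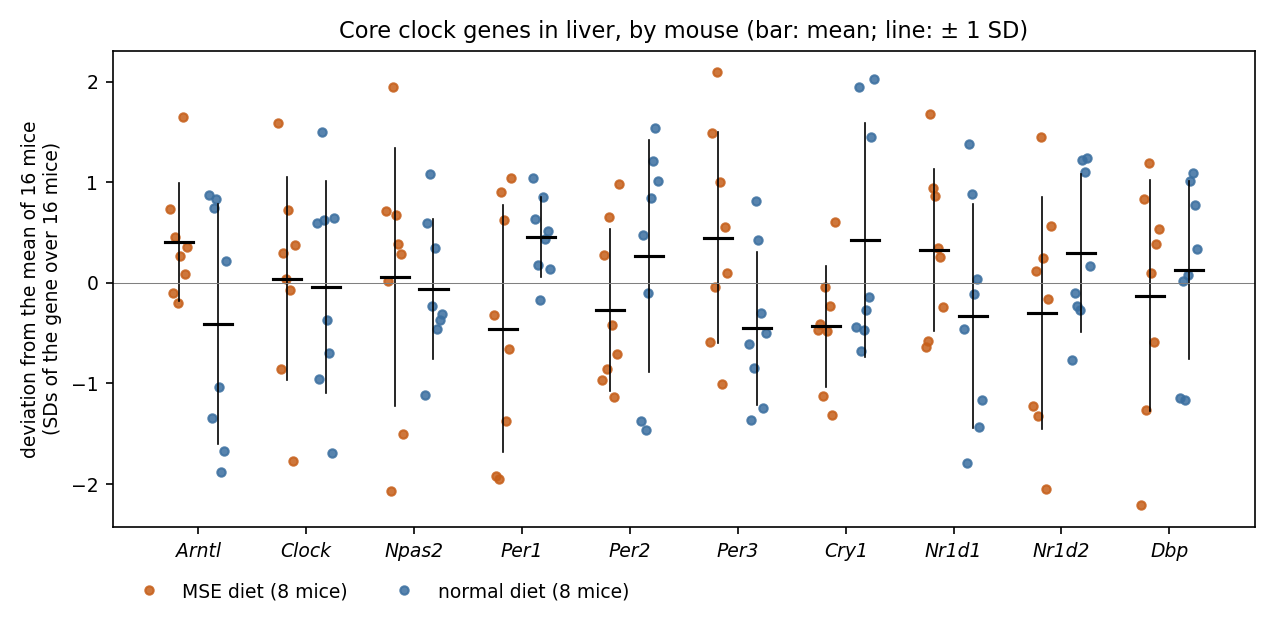
Deviation of each mouse from the mean of all 16 mice, in SDs of the gene (y axis), for the 10 clock genes (x axis), with MSE mice left and normal-diet mice right; horizontal bars are means and vertical lines ± 1 SD (8 mice each). The diets overlap for every one of the 10 genes, and the MSE mice of Per1 range from -875 to 469 millionths of a log2 unit.

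Among the activators, Arntl had the widest spread. Its deviations ran from -17.9 over a median of 28.0 to 149 millionths in MSE mice, and from -169 over a median of -36.8 to 79.0 in normal-diet mice. The MSE mice lay inside a narrower band, since the SD was 52.8 in MSE mice and 107 in normal-diet mice (n = 8 each), and the groups overlapped. The difference, MSE minus normal diet, was 73.2 ± 41.1 millionths (SE), or 0.87 SDs, with the MSE mouse higher in 40 of 64 pairs of mice (limma unadjusted p 0.0957, adjusted p 0.805).

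Clock, the partner of Arntl, did not separate the diets: deviations ran from -37.2 over a median of 3.52 to 33.5 millionths in MSE mice, and from -35.5 over a median of 2.39 to 31.5 in normal-diet mice. The difference was 1.78 ± 10.6 millionths (SE), with MSE higher in 33 of 64 pairs. For Npas2, which can replace CLOCK in the pair, the difference was 0.54 ± 2.40 millionths (SE), with MSE higher in 38 of 64 pairs. Npas2 values, with a mean of 5.70, lay below the array medians, and its SD of 4.72 millionths was near the median SD of all probe sets. The limma adjusted p was 0.996 for Clock and 0.993 for Npas2.

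The repressor genes Per1, Per2 and Cry1 were lower on average with MSE, none past the test. Per1, an early-responding Per gene that glucocorticoids also induce, ran from -875 over a median of -220 to 469 millionths in MSE mice, against -76.3 over a median of 215 to 470 in normal-diet mice. Its low values lay in the MSE diet, where replicates 3, 2, 6, 7 and 1 were at -875, -863, -618, -296 and -145 millionths, below every normal-diet mouse. The highest mice of both diets were alike, and the SD was 552 in MSE mice and 180 in normal-diet mice. The difference was -410 ± 200 millionths (SE), or -0.999 SDs, with MSE lower in 45 of 64 pairs (limma unadjusted p 0.0584, adjusted p 0.763).

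Per2, a Per gene that also answers to systemic signals, ran from -390 over a median of -194 to 341 millionths in MSE mice and from -505 over a median of 228 to 532 in normal-diet mice. Both diets held high and low mice. The difference was -186 ± 167 millionths (SE), or -0.54 SDs (limma adjusted p 0.923). Of the other Per2 probe sets, the one with an SD of 13.4 millionths differed by -1.24 SDs, with MSE lower in 48 of 64 pairs (limma unadjusted p 0.0224). It was the one clock gene probe set of 24 under 0.05, and it was not called over all probe sets. Cry1, the later-peaking repressor, ran from -231 over a median of -77.4 to 107 millionths in MSE mice and from -119 over a median of -35.4 to 357 in normal-diet mice. Its highest values were those of normal-diet replicates 8, 2 and 7, at 357, 343 and 255 millionths, and the other 5 normal-diet mice lay between -119 and -23.8. The Cry1 difference was -152 ± 79.4 millionths (SE), or -0.93 SDs, with MSE lower in 45 of 64 pairs (limma unadjusted p 0.0759, adjusted p 0.791).

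Per3, the Per gene least needed for rhythm in mice, was the other way round. Its deviations ran from -36.3 over a median of 11.9 to 75.6 millionths in MSE mice and from -49.4 over a median of -20.0 to 29.6 in normal-diet mice. The difference was 32.6 ± 16.1 millionths (SE), or 0.99 SDs, with MSE higher in 49 of 64 pairs (limma unadjusted p 0.0612, adjusted p 0.771). This direction belongs to the probe set with the highest mean. Of the 5 other Per3 probe sets, 3 were lower with MSE, among them the one with the widest spread (-183 millionths, limma unadjusted p 0.476), and the mean of all 6 was lower (-17.7 millionths).

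The Nr1d receptor genes and Dbp showed no call either. Nr1d1 ran from -26.6 over a median of 12.7 to 70.4 millionths in MSE mice and from -75.3 over a median of -11.9 to 58.2 in normal-diet mice, a difference of 27.8 ± 19.9 (SE; limma adjusted p 0.873). Nr1d2 ran from -59.3 over a median of -0.717 to 41.8 millionths in MSE mice and from -22.1 over a median of 1.04 to 35.8 in normal-diet mice, a difference of -17.3 ± 13.8 (SE; limma adjusted p 0.898). The Nr1d genes thus had differences of opposite sign, each within the spread between mice. The sign for Nr1d2 turned after quantile normalization (161.9 millionths).

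Dbp, a PAR bZIP transcription factor and direct output of the Arntl pair, had the widest spread of the 10 genes on this scale. It ran from -14636 over a median of 1608 to 7872 millionths in MSE mice and from -7696 over a median of 1394 to 7219 in normal-diet mice. The medians were close, and the difference of -1680 ± 3304 millionths (SE; limma adjusted p 0.978) came with MSE lower in 34 of 64 pairs. It rested on 1 mouse, since without MSE replicate 1 the difference was 290.5 millionths.

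For each probe set the authors' deposited table holds estimated false discovery rates in both directions, and no source used here names the test behind them. In the authors' deposited table the rate for lower expression with MSE was 0.000359 for Per1, 0.00221 for Per2 and 0.00692 for Cry1. In the authors' deposited table the rate for higher expression was 0.0203 for Arntl and 0.0406 for Per3, but another Per3 probe set, that with the widest spread, had 0.00434 for lower expression there. In the authors' deposited table Dbp had low rates for both directions, 0.000205 for lower and 0.00405 for higher. A gene cannot be both higher and lower on average, so the rates of Dbp do not give a direction. The remaining genes in the authors' deposited table had their lower rate at 0.0754 (Nr1d1), 0.323 (Nr1d2), 0.984 (Clock) and 1.16 (Npas2).

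Across mice, some of the clock genes moved together and others against each other. With diet means removed, 8 of the 45 pairs of clock genes were correlated over the 16 mice at an adjusted p under 0.05, 4 positively and 4 negatively (Pearson's r, 100000 permutations within diets, two-sided, Benjamini-Hochberg adjustment over 45 pairs). An unadjusted p under 0.05 was reached by 12 pairs. The smallest called r was 0.635 in size, and 2.23% of all pairs of genes reached that size. Dbp, Per2 and Nr1d2 rose and fell together from mouse to mouse, and Arntl ran opposite to all 3 on the deposited scale. The calls of Arntl with these 3 were lost after centring on array medians, and that of Nr1d2 with Dbp after quantile normalization.

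Nr1d2 and Dbp had r = 0.824 (permutation p 0.00024, adjusted p 0.0036) and Spearman's rho = 0.859 (permutation p 9e-05). Per2 and Dbp had r = 0.810 (permutation p 0.0001, adjusted p 0.0036) and rho = 0.821 (permutation p 0.00033), and Per2 and Nr1d2 had r = 0.784 (permutation p 0.00024, adjusted p 0.0036) and rho = 0.850 (permutation p 9e-05). All 3 relations were present in each diet: r for Nr1d2 and Dbp was 0.795 in MSE mice and 0.883 in normal-diet mice, for Per2 and Dbp 0.747 in MSE mice and 0.944 in normal-diet mice, and for Per2 and Nr1d2 0.856 in MSE mice and 0.822 in normal-diet mice. Without the 2 mice farthest from the median of the first gene, r was 0.880, 0.723 and 0.841 for these pairs in that order. Per2 with Dbp was then no longer past adjustment (unadjusted permutation p 0.0092), while Nr1d2 with Dbp and with Per2 were. All 3 are genes that the Arntl pair drives.

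Arntl fell where these rose. Its r was -0.746 with Per2 (permutation p 0.0025, adjusted p 0.0225; rho = -0.727, permutation p 0.00318), -0.720 with Nr1d2 (permutation p 0.00035, adjusted p 0.00394; rho = -0.777, permutation p 0.00018) and -0.635 with Dbp (permutation p 0.0043, adjusted p 0.0311; rho = -0.709, permutation p 0.00169). Within diets, r with Per2 was -0.628 in MSE mice and -0.798 in normal-diet mice, with Nr1d2 -0.840 in MSE mice and -0.818 in normal-diet mice, and with Dbp -0.599 in MSE mice and -0.778 in normal-diet mice. Without the 2 mice farthest from the median, r was -0.673 for Arntl and Per2, -0.675 for Arntl and Nr1d2 and -0.542 for Arntl and Dbp. Of these, Arntl and Nr1d2 stayed past adjustment (adjusted permutation p 0.0297), and the others did not (0.0929 with Per2 and 0.134 with Dbp). In the order of all 18193 other genes by r with Arntl, from the lowest, Per2 stood at place 18, Nr1d2 at 24 and Dbp at 86.

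The mice at the ends of the Dbp range show the same opposition. They come from the values behind r, here without diet means removed, and are no further check. The lowest Dbp values were those of MSE replicate 1 (-14636 millionths), MSE replicate 3 (-8371), normal-diet replicate 3 (-7696) and normal-diet replicate 1 (-7550). In these mice, in that order, Arntl lay at 66.2, 41.1, 66.7 and 79.0 and Per2 at -332, -296, -505 and -473 millionths. The highest Dbp values were those of MSE replicate 4 (7872), normal-diet replicate 6 (7219), normal-diet replicate 5 (6680) and MSE replicate 2 (5500). There Arntl lay at -17.9, -169, -93.2 and -9.14 and Per2 at 227, 420, 292 and 96.8 millionths. Low and high mice thus came from both diets. Among the other mice, Arntl and Dbp were both above their means in MSE replicates 5, 7 and 8 and normal-diet replicates 4 and 8. They lay on opposite sides of their means in MSE replicate 6 and normal-diet replicates 2 and 7.

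**Figure D2:**
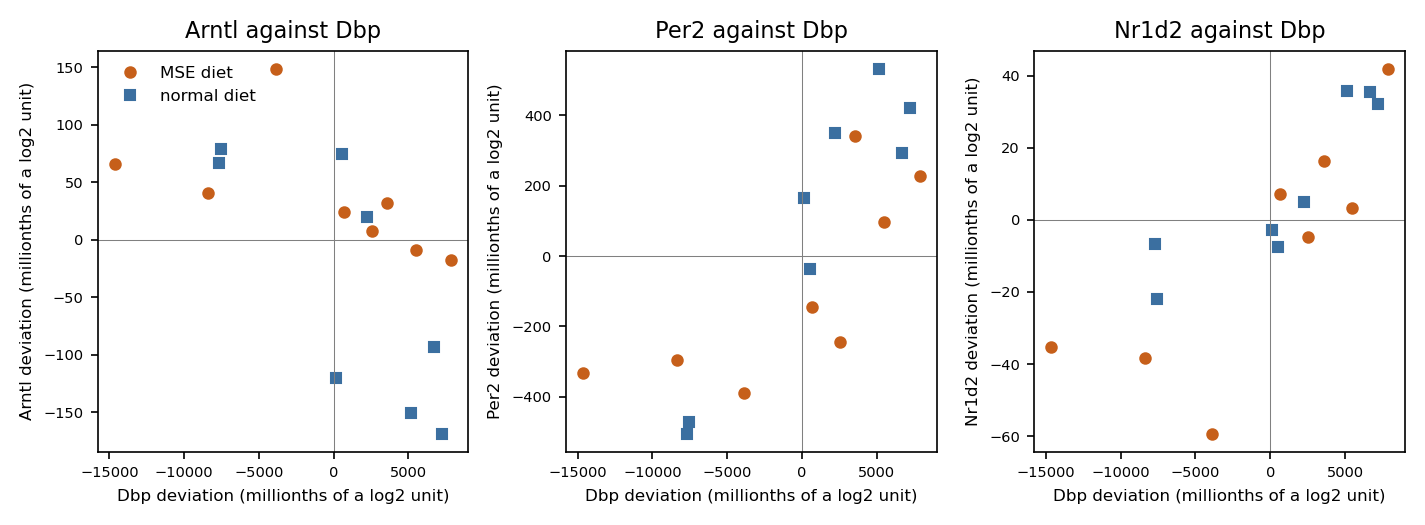
Deviations of Arntl, Per2 and Nr1d2 (y axes) against those of Dbp (x axes), in millionths of a log2 unit from each gene's mean over 16 mice; each point is 1 mouse, circles MSE diet and squares normal diet. Arntl falls with Dbp (r = -0.635), while Per2 (r = 0.810) and Nr1d2 (r = 0.824) rise with it, in mice of both diets. These r are with diet means removed, and the points as plotted have r of -0.626, 0.808 and 0.817 in that order.

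The other called pairs were Arntl with Clock (r = 0.683, permutation p 0.00635, adjusted p 0.0357; rho = 0.674, permutation p 0.0102) and Cry1 with Nr1d1 (r = -0.725, permutation p 0.00484, adjusted p 0.0311; rho = -0.647, permutation p 0.0137). The 6 other called pairs passed by rho too, but neither of these did (adjusted permutation p 0.0571 and 0.0685 in that order). Both were weaker in MSE mice than in normal-diet mice, with r of 0.316 in MSE mice against 0.906 in normal-diet mice for Arntl and Clock, and -0.358 in MSE mice against -0.873 in normal-diet mice for Cry1 and Nr1d1. The difference between diets was not tested. Without the 2 mice farthest from the median, r was 0.683 and -0.606 for these pairs, neither past adjustment (adjusted permutation p 0.104 and 0.142). Clock and Dbp, with r = -0.639 and rho = -0.547, just missed the threshold (permutation p 0.0109, adjusted p 0.0547).

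Several pairs that the textbook clock would join were not called. Nr1d1 followed neither Dbp (r = -0.157, adjusted permutation p over 45 pairs 0.737) nor Nr1d2 (r = -0.101, adjusted permutation p 0.809), and its r with Arntl, which NR1D1 represses, was positive (0.371, adjusted permutation p 0.468). Per1 and Per2 had r = 0.29 (adjusted permutation p 0.468), Arntl and Npas2 r = -0.073, Arntl and Cry1 r = -0.308, and Npas2 and Per3 r = 0.251. With the probe set that stands for the gene, Per3 and Dbp had r = 0.582 (permutation p 0.0287, adjusted p 0.108). A p above the threshold over 16 mice does not show that these genes are unrelated.

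**Figure D3:**
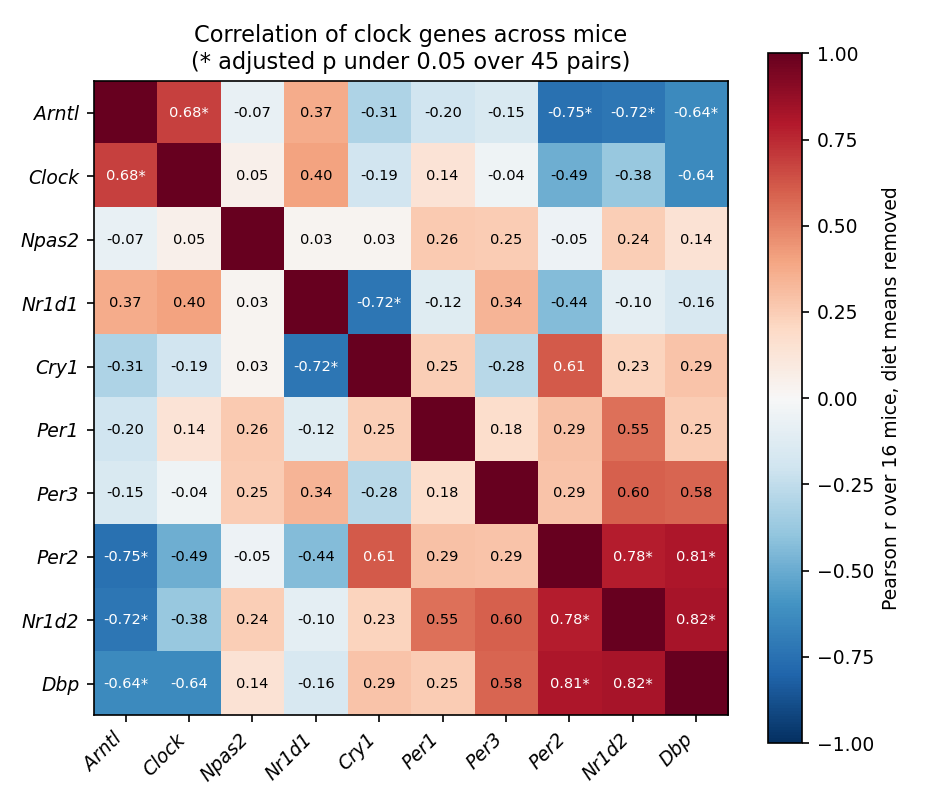
Pearson's r between the 10 clock genes over 16 mice, with diet means removed, as colours and numbers; stars mark the 8 pairs past an adjusted permutation p of 0.05 over 45 pairs. Per2, Nr1d2 and Dbp form a positive block at the lower right (r from 0.784 to 0.824), and Arntl is negative with all 3.

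Some of the called pairs depended on scaling between arrays, and the cause was not tested. Centring on array medians called 9 pairs, but only 4 of the 8 were among them. It ended all 3 calls of Arntl with Per2 (r = -0.590, adjusted permutation p 0.0886), Dbp (r = -0.513, adjusted permutation p 0.127) and Nr1d2 (r = -0.0896, adjusted permutation p 0.836), besides Cry1 with Nr1d1 (r = -0.364). It also raised r between genes of small spread, such as Clock and Npas2 (0.0538 as deposited, 0.80 after centring). Quantile normalization kept 3 of the 8, among them Arntl with Per2 (r = -0.720, adjusted permutation p 0.0477), and Arntl with Dbp missed the threshold (r = -0.628, adjusted permutation p 0.0513). After quantile normalization r was -0.316 for Arntl and Nr1d2, -0.132 for Arntl and Clock and -0.242 for Cry1 and Nr1d1. Nr1d2 and Dbp, with r = 0.633, missed the threshold too (adjusted permutation p 0.0763). Per2 with Dbp was called under both, with r of 0.805 after quantile normalization and 0.816 after centring, and so was Per2 with Nr1d2 (0.677 and 0.685). Leaving out normal-diet replicate 5, 6 or 7 left 4 called pairs and leaving out normal-diet replicate 3 left 5, although all 8 pairs kept their sign in each case. The 4 pairs lost without replicate 5, 6 or 7 were Arntl with Clock, Per2 and Dbp, and Cry1 with Nr1d1. Within the 8 mice of each diet alone 0 of 45 pairs passed adjustment by exact permutation, and all 8 pairs had the same sign in both diets.

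The other probe sets of the clock genes gave a check of the pattern. The Dbp probe sets followed each other closely (r = 0.989). For Per2, r with Dbp was 0.713 and 0.826 in its other probe sets, beside 0.810. For Per3, 4 of the 5 other probe sets had a higher r with Dbp than the one that stands for the gene, one of them 0.635 (adjusted permutation p 0.0506 in its place). The other 3 had r of 0.923, 0.839 and 0.765 at SDs of 507, 171 and 124 millionths, each past the threshold when put in its place (adjusted permutation p over 45 pairs 0.00045, 0.00281 and 0.0115). Per3 is the gene whose promoter window above holds a pair of D-boxes, the element DBP acts on. Whether DBP acted on Per3 in these livers was not tested.

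Of the 3 other Clock probe sets, the one with a mean of 6.72 had r = -0.873 with Dbp and 0.757 with Arntl, the one with a mean of 6.93 had -0.433 and 0.768, and the one with a mean of 5.88 had -0.520 and 0.18. The other Npas2 probe set had r = -0.601 with Dbp and 0.354 with Arntl, unlike the one that stands for the gene (0.141 and -0.073). The remaining probe sets of Arntl (r = -0.273 with Dbp, SD 3.02 millionths) and Nr1d2 (r = 0.021, SD 2.40 millionths) had r of only 0.0712 and 0.134 with the probe set that stands for the gene. With the mean of all probe sets of each gene, 15 of 45 pairs passed, all 8 pairs above among them, and Per3 and Dbp had r = 0.935. Cry1 and Nr1d1 have a single probe set each, so their r was unchanged (-0.725). For Arntl, Per2, Nr1d2 and Dbp the probe set that stands for the gene has the widest spread and weighs most in the mean. For these genes the mean is no separate check. For Per3 the mean mostly follows another probe set, that with the widest spread, whose r with Dbp is given above.

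**Figure D4:**
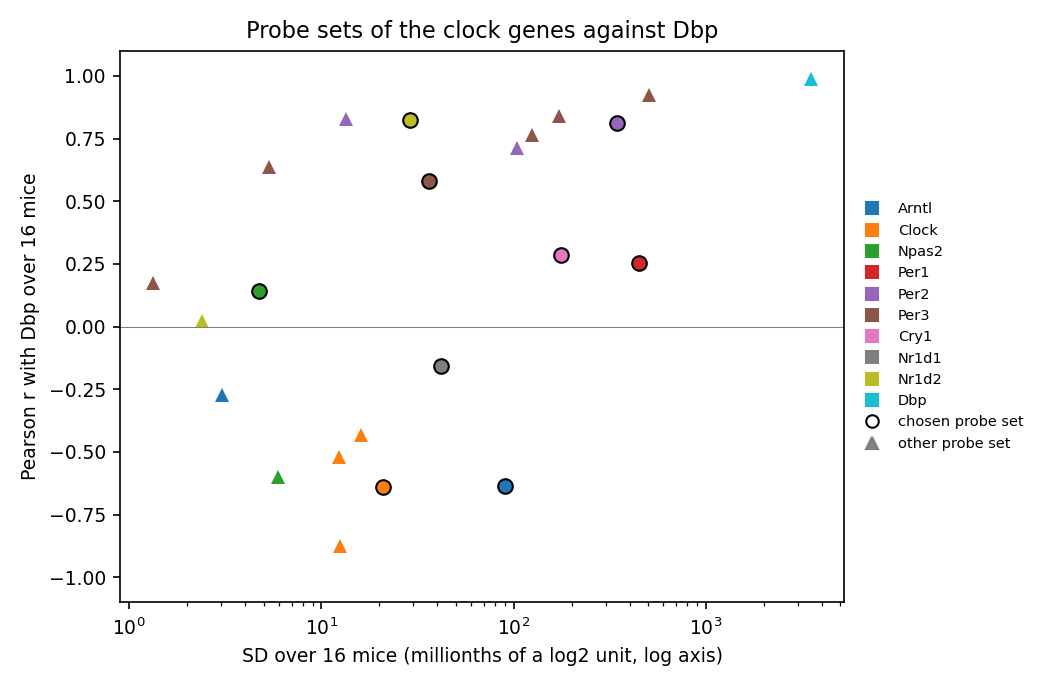
Pearson's r with Dbp over 16 mice (y axis) against the SD over mice (x axis, log scale, millionths of a log2 unit) for the probe sets of the clock genes, other than the one that stands for Dbp; outlined circles stand for the gene, triangles are its other probe sets. The Per3 probe set with an SD of 507 millionths lies at r = 0.923, and the Dbp probe set at 0.989.

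Some other genes of the clock loop had a high r with Dbp. Of 20 listed clock and clock-modifying genes 18 were measured, and 6 of them reached an r with Dbp of 0.635 or more in size, beside 7.18% of all genes. All 6 were positive: Tef, a PAR bZIP relative of Dbp (0.897), Cry2 (0.849), Wee1, a cell cycle kinase gene that the clock drives (0.829), the deubiquitinase gene Usp2 (0.796), Rora, an activator at RRE sites (0.723), and Bhlhe40, an E-box repressor (0.702). They were picked by value. In the order of all 18193 other genes by r with Dbp, Tef stood at place 3, Cry2 at 33 and Wee1 at 56. These 6 stayed positive after quantile normalization (0.546 to 0.789) and after centring (0.709 to 0.904).

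With Arntl, 2 of the 18 genes reached that size, beside 1.05% of all genes: Wee1 (r = -0.833, place 2 from the lowest) and Noct, a rhythmic phosphatase gene (r = -0.672). Rhythmic liver genes outside the loop gave 2 of 11 with Dbp, beside 7.18% of all genes. These were Upp2, a uridine phosphorylase gene (0.791), and Insig2, a regulator of sterol synthesis (-0.728). With Arntl the list gave 2 of 11, Insig2 (0.733) and Slc45a3 (0.662), beside 1.05% of all genes. Quantile normalization left Insig2 constant, so it has no value there, and gave -0.173 for Slc45a3 with Arntl. The median size of r in this list was 0.297 with Dbp, beside 0.275 for all genes, and 0.515 with Arntl, beside 0.191. By diet, 4 of the 18 other clock genes were higher and 14 lower with MSE, with a median standardized difference of -0.32 and 0 at an unadjusted p under 0.05. Of all 18194 genes, 8793 were higher and 9401 lower, with a median of -0.02. Several of the 18 shared a high r with Dbp, so their signs are not independent. After quantile normalization 10 of 18 were lower, and after centring on array medians 11 of 18. Of the 11 rhythmic liver genes, Avpr1a, a vasopressin receptor gene, was the one with a limma unadjusted p under 0.05 (1.30 SDs higher, p 0.0177, adjusted p 0.654).

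**Figure D5:**
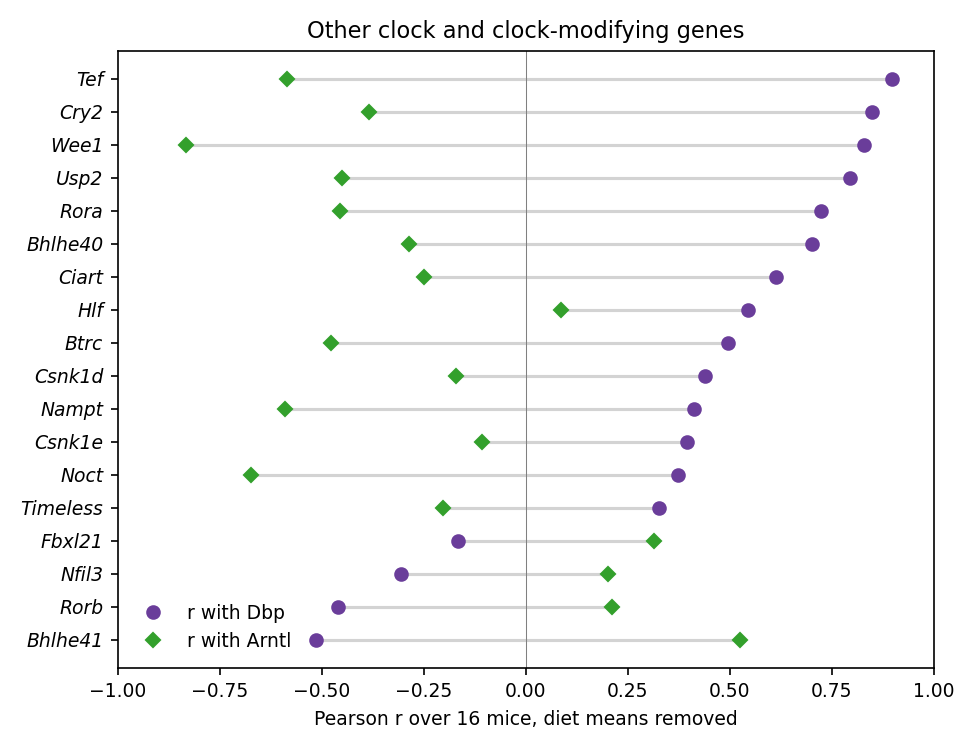
Pearson's r over 16 mice, diet means removed, of 18 other clock and clock-modifying genes (rows) with Dbp (circles) and with Arntl (diamonds). Tef, Cry2 and Wee1 lie at 0.829 or more with Dbp, and Wee1 at -0.833 with Arntl.

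Outside the clock lists, the genes most like Dbp over the 16 mice were Tmem134 (r = 0.914), Rnf181 (0.901), Acvr1b (0.895), Zfp385b (0.888) and Dctpp1 (0.887), and the most opposite were Ttyh1 (-0.865), Spag6l (-0.861), Olfr672 (-0.851), Tox2 (-0.845) and Slc6a8 (-0.844). Those most like Arntl were Dtx4 (0.901), Tab2 (0.864), Mad2l2 (0.851), Clpx (0.849) and C1qtnf2 (0.822), and the most opposite were Tut4 (-0.834), Rhebl1 (-0.828), Ppat (-0.825), Akr1c19 (-0.818) and Zfp119a (-0.808). These are the extremes of 18193 values each and are given as a description. Several have an SD near that of the median probe set, such as C1qtnf2 (4.64 millionths) and Ttyh1 (4.59 millionths).

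Markers of cell types did not move with Arntl or Dbp beyond the test, and the other clock genes were not tested against them. Scores of 11 marker lists and 3 measures of the array's own level gave 28 correlations with Arntl or Dbp over 16 mice, 0 of them past adjustment (smallest adjusted permutation p 0.753 for r and 0.683 for rho), with r for the marker lists between -0.436 and 0.279. The largest r in size was that of the array's 75th percentile with Dbp (r = -0.588, rho = -0.329, permutation p 0.0317 and 0.242). The largest rho in size was that of the neutrophil list with Dbp (rho = -0.582, r = -0.434, permutation p 0.0244 and 0.105). By diet, 7 of 60 measured marker genes were higher and 2 lower at a limma unadjusted p under 0.05, against 2.59% and 4.07% of all genes. The macrophage list was lower in 10 of 10 genes with 0 at that p, where 9401 of all 18194 genes were lower. It was higher in 7 of 10 after quantile normalization and lower in 7 of 10 after centring on array medians.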

How the data were processed

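Liver RNA of 16 mice was measured on 3' oligonucleotide arrays, and the authors deposited log2-like values for 45101 probe sets, ranging from 5.05 to 14.6, a range from which the log base is inferred. R 3.2.2 was used, per the submitters' processing notes. No source used here names the summarization or normalization. The authors' deposited table repeats these values (largest difference 0 after sorting within each diet) and adds false discovery rate estimates, a score that exceeds 1 for some probe sets.

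Of the probe sets, 34958 named 1 gene, 932 several and 9211 were unlisted. The probe set with the highest mean stood for each of 18194 genes. The diet comparison used lmFit and eBayes of limma 3.58.1 (R 4.3.3), two-sided and without covariates, with Benjamini-Hochberg adjustment over all genes at 0.05. Correlations used diet-centred values and 100000 permutations within diets, or all permutations within a diet of 8 (Python 3.11.15, NumPy 2.4.6). Regroupings for single genes were exact (12870). Steps were tested on simulated data. Arrays give no counts, so the number of mice limits the precision. The labels call the mice biological replicates.

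Members, lists and pairs were chosen with earlier results of these data known. Named were all members, listed genes with an unadjusted p under 0.05 (up to 4 per list), fixed or called pairs, and the 5 genes most and least like Arntl and Dbp. The fits were repeated with array weights, a replicate block, quantile normalization, array median centring, robust estimation on an intensity trend, genes above the median level, other probe set choices, an adjusted p of 0.1, rho, and leaving out each mouse. Single other probe sets in the pairs, and other probe sets of the clock genes counted over all probe sets, were added after seeing the data.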

Additional observations from a re-analysis of the deposited data

Results flagged for a closer look

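Over 108 groups of 8 values, for 54 genes in each diet, 9 held a mouse whose gap to the next, divided by the group's range, was above Dixon's critical value, where chance gives about 1 in 20. None of the 10 clock genes was among them. In the other clock genes the ratio was 0.584 for Csnk1d (MSE replicate 1, low), 0.760 for Fbxl21 (MSE replicate 8, low), 0.579 for Timeless (MSE replicate 7, high) and 0.539 for Csnk1e (normal-diet replicate 4, low). In the remaining lists it was 0.608 for Cpt1a (MSE replicate 2, high), 0.533 for Oit3 (MSE replicate 8, high), 0.555 for Nkg7 (MSE replicate 1, high), 0.607 for Gys2 (normal-diet replicate 2, high) and 0.536 for Alas2 (normal-diet replicate 2, high).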

How the results depend on the processing

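The count of clock genes called between diets was 0 under every alternative run, the replicate block and the other probe sets included. At an unadjusted p under 0.05 there were 0 clock genes as deposited, 1 after centring on array medians (Per3), 2 with the replicate block (Nr1d1 and Per3) and 0 to 2 when single mice were left out. Over all genes limma called 0, against 3 after quantile normalization (Bmp7, Gnpda2, Gp1bb), 1 among genes above the median level (Cyp2r1), 1 with the replicate block (Wdr7), 1 at an adjusted p under 0.1, and 0 to 2 without single mice (Cyp2r1 without MSE replicate 7, Cyp2r1 and Ephx2 without normal-diet replicate 2). Centring raised the median difference of all genes by 13 millionths of a log2 unit. Called pairs numbered 8, against 6 by rho, 4 after quantile normalization (3 of them among the 8) and 9 after centring (4 of them among the 8). They numbered 15 with the mean of probe sets, 1 with the replicate block (Arntl and Per2), 0 in MSE mice alone and 0 in normal-diet mice alone. Without the farthest 2 mice they numbered 3 (Nr1d2 with Dbp, Per2 and Arntl), and without single mice 4 to 9. No label ties same-numbered mice together. Their deviations correlated between -0.0262 and 0.218 over all genes, 5 of 8 above 0.1, and 9 of 16 mice matched their own number best, a hint from the data and not from the design. With the replicate block r was 0.859 for Nr1d2 and Dbp and 0.604 for Per2 and Dbp (adjusted permutation p 0.0893 and 0.477).

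Some signs turned, and the cause was not tested. The difference of Clock was -80.0 millionths after quantile normalization and -3.16 to 7.22 without single mice, that of Npas2 -0.741 to 1.97 and that of Dbp -2925 to 290.5 without single mice. Per3 gave -17.7 with the mean of probe sets and -183, -1.01 and -0.777 with other probe sets, and Nr1d2 161.9 after quantile normalization and 0.549 with its other probe set. Of the called pairs, r turned for Arntl and Clock (-0.132 after quantile normalization, -0.124 with the other Arntl probe set) and for Per2 and Nr1d2 (-0.154 with the other Nr1d2 probe set). Uncalled pairs turned more often. Arntl and Npas2 gave 0.236 after quantile normalization, 0.525 after centring, 0.205 with the mean of probe sets, 0.0748 with the replicate block, 0.354 with the other Npas2 probe set and -0.207 to 0.0476 without single mice. Npas2 and Per3 gave -0.363 with the mean of probe sets, -0.162 with the replicate block, -0.148 in normal-diet mice, -0.105 without the farthest 2 mice, -0.142 with the other Npas2 probe set and -0.025 to 0.333 without single mice. Dbp and Nr1d1 gave 0.156 with the replicate block, 0.0175 in MSE mice and -0.411 to 0.0302 without single mice, and Nr1d1 and Nr1d2 0.302 after centring, 0.416 with the other Nr1d2 probe set and -0.227 to 0.0199 without single mice. Arntl with Cry1 gave 0.0767 in MSE mice and 0.00766 with the other Arntl probe set, Arntl with Nr1d1 -0.0482 in MSE mice and -0.0125 with that probe set, and Per1 with Per2 -0.0506 in normal-diet mice.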

Other observations

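Over the 10 clock genes and 16 mice, with diet means removed, the leading axis of variation held 43.5% of the summed variance of the scaled genes and the next 20.9%. The weights on the leading axis were 0.442 for Per2, 0.428 for Dbp and 0.424 for Nr1d2 at one end, and -0.402 for Arntl and -0.310 for Clock at the other, with Npas2 at 0.0759. This is a description of the same correlations given above.

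Of 16 genes that answer to glucocorticoids or fasting, 0 reached an r of 0.635 in size with Dbp or Arntl, where 7.18% and 1.05% of all genes did, so a count of 0 is near the share of all genes. Their median size of r was 0.374 with Dbp, beside 0.275 for all genes, and 0.190 with Arntl, beside 0.191. By diet, limma gave an unadjusted p under 0.05 for Fgf21, a fasting hormone gene (1.24 SDs higher with MSE), Cpt1a, of mitochondrial fatty acid import (1.14 SDs higher), Sgk1, a kinase gene (standardized difference -1.21), and Tat, an amino acid enzyme gene (-1.049), with adjusted p between 0.685 and 0.740. These are 2 of 16 higher and 2 lower, where 2.59% of all genes were higher and 4.07% lower at that p. Of 9 measured genes that answer to body temperature, 7 were higher with MSE, with a median standardized difference of 0.84 beside -0.02 for all genes. Cirbp (-0.24) and Hspa5 (-0.42) were lower. Whether the signs of these genes are independent was not tested. After quantile normalization and after centring 7 of 9 were higher too. At a limma unadjusted p under 0.05 there were 2 higher and 0 lower as deposited, 3 and 0 after centring, but 0 and 1 after quantile normalization. The shares of all genes at that p were those just given. Of the 9, Hspd1 (1.19 SDs higher) and Dnajb1 (1.14 SDs higher), both chaperone genes, had a limma unadjusted p under 0.05 and adjusted p of 0.70 and 0.716. With Dbp or Arntl, 0 of the 9 reached an r of 0.635 in size, which is near the 7.18% and 1.05% of all genes given above.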
